A study of Mus musculus with 13 samples.

Results

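The 8 genes followed here, Lgr5, Ascl2, Olfm4, Smoc2, Axin2, Rgmb, Gkn3 and Slc12a2, mark the stem cells of the mouse small intestine, and their levels were read in single cells of the Lgr5 lineage. They were taken by symbol from the tables of 13 libraries, and all 8 members were found among the 16204 genes listed. The mice carried Lgr5-CreERT2 on a C57Bl6/J background and a Rosa26LSL-YFP reporter, so that tamoxifen made cells with an active Lgr5 locus, and later their progeny, yellow. All groups share these 2 alleles. YFP-positive ("traced") cells were sorted 5 days after tamoxifen (5 libraries), at 3 weeks from the CD24+ fraction (1 library) and at 8 weeks from the CD24+ fraction (3 libraries) or without that gate (1 library). Non-traced CD24+ cells were the controls at 3 weeks (1 library) and at 8 weeks (2 libraries). The trace records Lgr5 activity at the time of tamoxifen, not at the time of sorting, and a non-traced cell can be a stem cell in which the reporter was not switched on. The labels give neither the age of the mice nor how many mice a library holds, so the p-values measure the spread between libraries, which may be technical.

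In the intestinal crypt, stem cells at the base divide under Wnt signals from neighbouring Paneth cells and other sources, and their daughters become proliferating progenitors and then absorptive or secretory cells. Lgr5 is a receptor for R-spondins, which strengthen Wnt signalling. Ascl2 is a transcription factor that maintains stem cells in the mouse intestine, and Axin2 is a scaffold of the complex that destroys beta-catenin and a feedback target of Wnt. Olfm4 and Gkn3 encode secreted proteins, Smoc2 a matrix-associated calcium-binding protein, Rgmb a co-receptor for bone morphogenetic proteins and Slc12a2 a sodium, potassium and chloride cotransporter. All are used as markers of Lgr5-positive crypt cells. On GRCm38 with GENCODE M21 genes, Lgr5 lies at chr10:115450311-115587780 (minus strand), Ascl2 at chr7:142966829-142969264 (minus), Axin2 at chr11:108920349-108950783 (plus) and Gkn3 at chr6:87383256-87388935 (minus). Smoc2 lies at chr17:14279506-14404790 (plus), Rgmb at chr17:15803188-15831039 (minus) and Olfm4 at chr14:79984081-80023139 (plus).

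Promoters from RefSeq (GRCm38.p6; 250 bases before to 50 after the annotated start) were at hand for Ascl2, Axin2, Olfm4, Rgmb and Gkn3, that is for 5 of 8 members, with 3 starts for Rgmb. Lgr5, Smoc2 and Slc12a2 are named only. The promoters of Ascl2 (chr7:142969215-142969514, minus strand), Axin2 (chr11:108920099-108920398, plus strand) and Gkn3 (chr6:87388886-87389185, minus strand) are shown because Axin2 and Gkn3 passed the test between traced and non-traced cells described below and Ascl2 did not. Capitals mark CTTTG or its reverse complement CAAAG, the core of the motif bound by TCF and LEF factors, searched on both strands.
Ascl2: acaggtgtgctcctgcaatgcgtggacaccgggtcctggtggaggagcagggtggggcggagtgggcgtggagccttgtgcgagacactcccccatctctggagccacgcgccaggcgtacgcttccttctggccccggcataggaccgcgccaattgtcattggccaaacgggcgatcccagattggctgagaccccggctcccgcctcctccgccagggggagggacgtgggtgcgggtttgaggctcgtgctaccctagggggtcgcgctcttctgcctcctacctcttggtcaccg
Axin2: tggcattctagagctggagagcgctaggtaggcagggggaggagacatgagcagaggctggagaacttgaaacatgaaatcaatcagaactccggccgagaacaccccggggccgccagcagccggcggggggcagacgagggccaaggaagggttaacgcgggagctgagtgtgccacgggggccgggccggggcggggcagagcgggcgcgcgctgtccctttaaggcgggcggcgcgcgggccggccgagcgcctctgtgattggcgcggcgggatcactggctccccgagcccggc
Gkn3: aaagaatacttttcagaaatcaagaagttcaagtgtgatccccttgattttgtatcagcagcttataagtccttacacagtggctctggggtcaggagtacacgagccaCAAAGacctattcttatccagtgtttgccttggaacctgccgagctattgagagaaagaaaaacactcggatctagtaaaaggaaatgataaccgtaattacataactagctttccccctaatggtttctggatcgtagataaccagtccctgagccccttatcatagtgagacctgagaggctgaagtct
CTTTG or CAAAG was found in 2 of the 7 member promoters, once in Gkn3 and once at one start of Rgmb, and in 53.9% of 32851 mouse promoters of the same length. A longer form, CTTTGA or TCAAAG, was searched first and was in 0 of the 7, against 16% of all promoters. The E-box CAGCTG, a form bound by basic helix-loop-helix factors, was in 0 of the 7, against 16.3%. GC content was 67% for Ascl2, 70% for Axin2 and 42.7% for Gkn3.

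Of 1248 cell barcodes, 892 had at least 3000 transcripts and were kept. Library medians were 5412 to 14458 transcripts per kept cell. Each library uses the same 96 cell barcodes, so shared barcodes carry no information on shared cells. The library labelled 3-week non-traced CD24+ carries, in the authors' combined table, a set name with YFP and without CD24, and it enters no test between groups. Its Cd24a, the gene of the CD24 antigen, stood at 5.45 per 10000, against 29.7 in the 3-week traced CD24+ library. Later libraries held Xist at 0.811 to 1.74 transcripts per 10000 and no Ddx3y, whereas 5-day libraries held Xist at 0 to 0.0135 and Ddx3y at 0.197 to 0.424. Time and the sex of the mice therefore change together between the 5-day and the 8-week libraries and cannot be told apart. The CD24 gate changes with them, except in the 8-week library without the gate, whose Cd24a (5.43 per 10000) lay within the 5-day range of 3.74 to 6.09.

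Levels are given as transcripts per 10000 transcripts of a library or class; CEL-seq counts the 3′ end of a molecule once, so they were not divided by length. At 5 days Lgr5 stood at 0.768, 0.460, 0.570, 0.721 and 0.592 per 10000. The single 3-week traced CD24+ library had 0.207 (9 transcripts; exact Poisson 95% interval 0.0946 to 0.393, counting error only). The 8-week traced CD24+ libraries had 0.952, 1.33 and 0.920, their non-traced counterparts 0.665 and 1.16, and the 8-week traced library without the gate 0.861. The library labelled 3-week non-traced CD24+ had 0.651. Lgr5 was thus lowest in the 3-week traced library, and every 8-week traced CD24+ library was above every 5-day library. The 3-week traced library was also low for Ascl2 (0.322), Smoc2 (1.10), Axin2 (0.230), Rgmb (0.207), Gkn3 (0.115) and Slc12a2 (2.02), and it held no Olfm4 transcript. The library labelled 3-week non-traced CD24+ was low for most of these genes too, with Ascl2 at 0.163, Smoc2 at 0.814, Axin2 at 0.543, Rgmb at 0.163, Gkn3 at 0.109, Olfm4 at 0.0543 and Slc12a2 at 2.09. Of the 62 cells of the 3-week traced library, 1 was stem-like and 20 were tuft-like by the classes described below. In sums over cells, fewer cells of a type and less RNA per cell cannot be told apart.

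**Figure D1:**
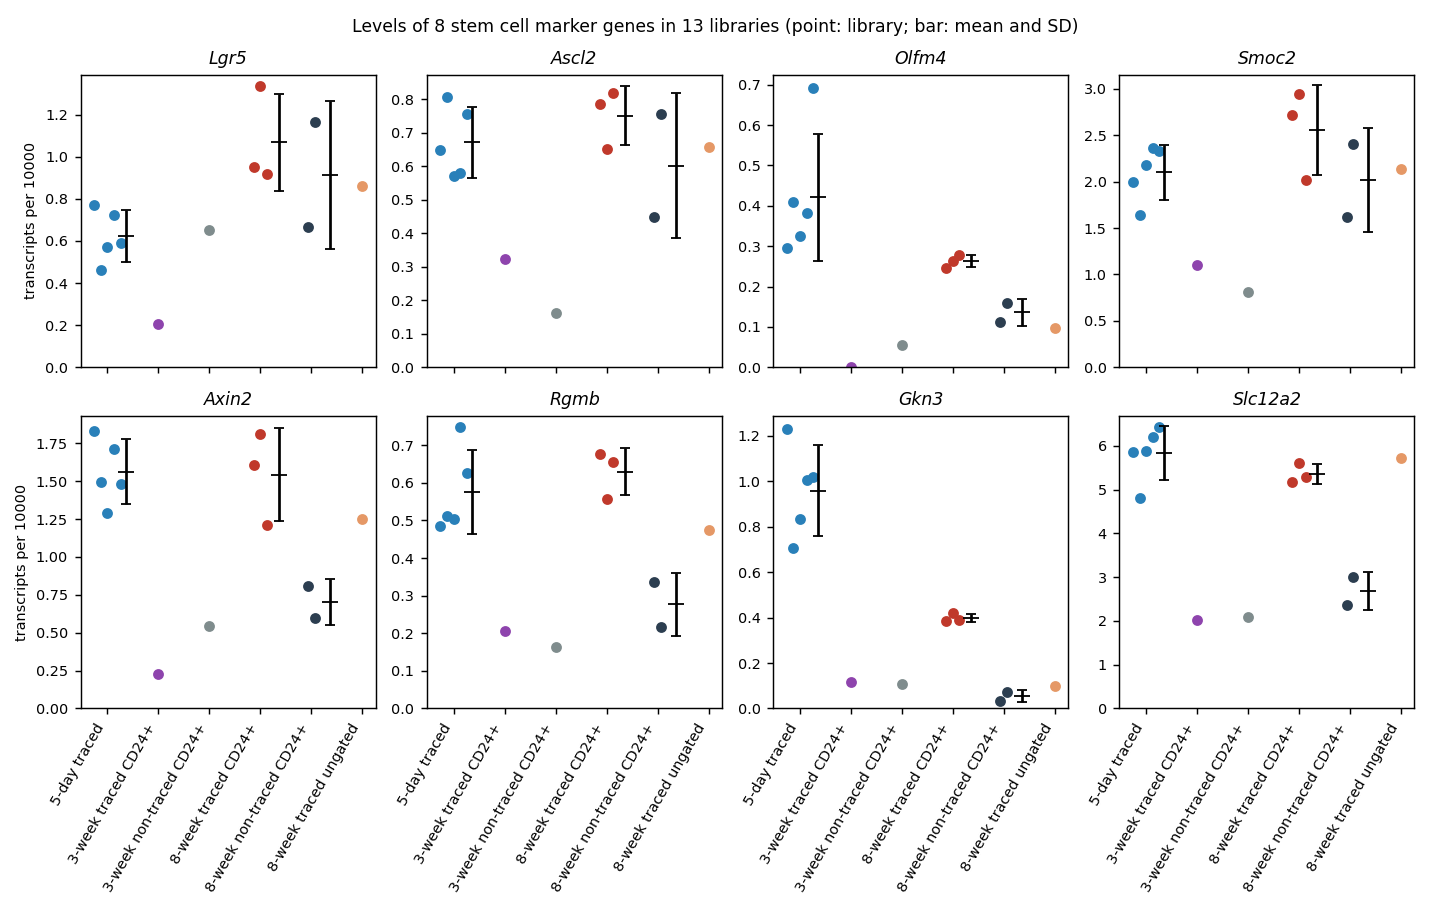
Level of each of the 8 genes (y axis, transcripts per 10000, linear, from 0) in the 13 libraries, by time after tamoxifen and sort (x axis). Points are libraries, and black bars the mean and SD where a group has more than 1 library; Lgr5 of the 3 8-week traced CD24+ libraries (0.920 to 1.33) lies above that of all 5-day libraries (0.460 to 0.768), whereas Gkn3 (0.385 to 0.419, against 0.703 to 1.23) lies below.

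Tracing was compared with no tracing at 8 weeks within the CD24+ gate. Gkn3, Rgmb, Axin2 and Slc12a2 were higher in traced cells, and Lgr5 itself did not pass the test. Gkn3 had 0.385, 0.419 and 0.391 per 10000 in traced libraries, against 0.0345 and 0.0726 in non-traced ones. The groups did not overlap, and Gkn3 was 2.98 ± 0.38 (log2, SE) higher in traced cells (adjusted p = 0.00154, edgeR quasi-likelihood test, Benjamini-Hochberg over 8811 genes). The non-traced levels of Gkn3 rest on few transcripts, whose number is given with the shares by class below. In non-traced replicate 2 all of them came from stem-like or proliferating-like cells. The size of the Gkn3 difference thus depends on few molecules. Axin2, Slc12a2 and Rgmb showed smaller differences in the same direction. Axin2 had 1.61, 1.81 and 1.21 per 10000 in traced libraries, against 0.811 and 0.596 in non-traced ones, a log2 difference of 1.10 ± 0.21 (edgeR adjusted p = 0.0113). Slc12a2 had 5.16, 5.60 and 5.29 in traced libraries, against 2.37 and 2.99 in non-traced ones, 1.00 ± 0.17 on the log2 scale (edgeR adjusted p = 0.00759). Rgmb had 0.676, 0.558 and 0.655 in traced libraries, against 0.337 and 0.218 in non-traced ones, 1.15 ± 0.25 on the log2 scale (edgeR adjusted p = 0.0253). For each of these genes every traced CD24+ library was above both non-traced ones. The single 8-week traced library without the gate is not part of this comparison. It had Gkn3 at 0.0969, Rgmb at 0.474, Axin2 at 1.25 and Slc12a2 at 5.73. Its Gkn3 and Rgmb lay between the groups, with Gkn3 near the non-traced libraries. All 8 members passed the filter on low counts, here and in the comparisons of times. In all, 4 of 8 were called, all higher in traced cells, against a background of 4.27% of all genes tested, or 1.53% higher in traced cells.

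Lgr5 overlapped between the groups: 0.952, 1.33 and 0.920 per 10000 in traced libraries, against 0.665 and 1.16 in non-traced ones, with a log2 difference of 0.24 ± 0.24 (edgeR adjusted p = 0.668). Ascl2 (0.38 ± 0.25, edgeR adjusted p = 0.465) and Smoc2 (0.35 ± 0.20, edgeR adjusted p = 0.393) also missed the threshold, with overlapping libraries. Olfm4 had 0.247, 0.264 and 0.277 in traced libraries, against 0.112 and 0.160 in non-traced ones. Its groups did not overlap, but on 11 to 34 transcripts a library its log2 difference of 0.99 ± 0.33 missed the threshold (edgeR adjusted p = 0.127). Cells with at least 1 Lgr5 transcript, after each cell was thinned to 3000 transcripts, made up 22.4% ± 4.05 of traced cells (SD, n = 3) and 21.2% ± 3.96 of non-traced cells (SD, n = 2). The exact two-sided permutation p of this share was 0.8, where 0.2 is the smallest such a design allows.

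Markers of several cell types moved with tracing. The 11 tuft markers found in the files summed to 18.6 to 23.2 per 10000 in traced libraries and to 46.2 to 52.5 in non-traced ones, and tuft-like cells made up 19.5% of traced and 48.3% of non-traced cells. The 21 proliferation markers summed to 28.5 to 46.1 in traced and to 19.3 to 23.8 in non-traced libraries. Cd24a stood at 15.2 to 20.4 in traced and at 36.7 to 37 in non-traced libraries. None of these 3 measures overlapped between the groups. Nor did the sum of 28 other stem markers, at 34.63 to 35.93 in traced and 19.03 to 23.23 in non-traced libraries. Stem-like cells made up 10.3% to 18.5% of the cells of traced libraries and 2.38% to 3.17% of those of non-traced ones. The part of stem-like cells, of proliferating cells and of Cd24a level in the members' differences was not tested. With tuft-like cells left out, an alternative chosen after seeing the data, 1 member was called instead of 4: Gkn3, at a log2 difference of 2.54 ± 0.39 (edgeR adjusted p = 0.00899). The background fell as well, to 1.02% of all genes tested, or 0.165% higher in traced cells. Slc12a2 (0.78 ± 0.18, edgeR adjusted p = 0.0624), Axin2 (0.76 ± 0.22, edgeR adjusted p = 0.143) and Rgmb (0.81 ± 0.26, edgeR adjusted p = 0.198) kept a positive difference without passing. The count also rests on the 2 non-traced libraries. Without replicate 1 of the non-traced libraries only Gkn3 was called (2.42, edgeR adjusted p = 0.0459) and Lgr5 turned to -0.15. Without replicate 2 Gkn3 (3.48, edgeR adjusted p = 0.0064) and Slc12a2 (1.18, edgeR adjusted p = 0.0271) were called. Rgmb also lost its call without traced replicate 1 (1.08, edgeR adjusted p = 0.110) or replicate 3 (1.09, edgeR adjusted p = 0.0559), and in DESeq2 (1.16, DESeq2 adjusted p = 0.0914). Where 1 non-traced library was left, it was assumed to vary like the others.

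By the set names in the authors' combined table, replicate 1 of each 8-week CD24+ group belongs to a set without a number and the other replicates to sets numbered II. Traced over non-traced, the log2 ratio of Gkn3 was 3.48 in the set without a number and 2.48 in the sets numbered II, and, in the same order of sets, that of Axin2 was 0.98 and 1.34, that of Rgmb 1.00 and 1.48, and that of Slc12a2 1.12 and 0.86. These 4 genes were thus higher in traced cells within both. Lgr5 (0.52 and -0.04), Ascl2 (0.81 and -0.04) and Smoc2 (0.74 and 0.04) were higher in the set without a number and near 0 in the sets numbered II. With the set as a block the same 4 members were called, Gkn3 at 2.95 ± 0.38 (edgeR adjusted p = 0.00508), Axin2 at 1.15 ± 0.19 (edgeR adjusted p = 0.0146), Slc12a2 at 0.98 ± 0.15 (edgeR adjusted p = 0.011) and Rgmb at 1.21 ± 0.24 (edgeR adjusted p = 0.0287), and Lgr5 stood at 0.20 ± 0.21 (edgeR adjusted p = 0.651).

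Other genes of the pathway were given by 2 lists, which share 5 genes. The Wnt list holds targets, feedback genes and components of the pathway such as receptors. Of 20 genes of the Wnt list tested, 4 were higher in traced cells and 0 lower, with a median log2 difference of 0.48 against 0.01 over all genes. Over all genes tested, 1.53% were higher in traced cells. These were Fzd2, a Wnt receptor (2.51 ± 0.49, edgeR adjusted p = 0.0138), Sp5, a transcription factor and Wnt target (2.31 ± 0.35, edgeR adjusted p = 0.00374), Cdca7 (1.45 ± 0.21, edgeR adjusted p = 0.00272) and Ccnd2, a G1 cyclin (0.81 ± 0.18, edgeR adjusted p = 0.0265). Of 23 other crypt base genes tested, 7 were higher and 0 lower, with a median of 0.67. Besides Cdca7, the strongest were 2210407C18Rik (1.96 ± 0.21, edgeR adjusted p = 9.6e-04) and the water channel gene Aqp4 (1.39 ± 0.25, edgeR adjusted p = 0.00996).

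Cells were then sorted into classes, to see which cells held the transcripts. The 8 genes took no part in the clustering or in the names, which came from other marker genes. Of the 892 cells, 198 were stem-like, 125 proliferating-like, 139 tuft-like, 106 enteroendocrine-like, 86 Paneth-like, 93 goblet-like and 53 enterocyte-like, and 92 stayed unnamed. The other stem markers, 28 of 29 listed genes being in the files, summed to 49.9 per 10000 in stem-like cells, 36.4 in proliferating-like, 23.2 in enteroendocrine-like, 18.6 in enterocyte-like, 17.3 in tuft-like, 15.9 in goblet-like and 15.4 in Paneth-like cells. Tuft markers summed to 152 in tuft-like cells and to 0.528 in stem-like cells, and Paneth markers to 3289 in Paneth-like and 32 in stem-like cells. Proliferation markers summed to 80.8 in proliferating-like, 48.2 in stem-like and 40.6 in goblet-like cells, and to at most 20.2 in the other named classes. Leukocyte markers were at most 0.936 in every class. Stem-like cells came from a cluster of 53 cells, mostly of later libraries, and one of 145 cells, mostly of the 5-day libraries. The 53-cell cluster had 14 stem and 7 proliferation markers raised, and the 145-cell cluster 10 stem and 8 proliferation markers. Proliferating-like cells came likewise from clusters of 75 (mostly later) and 50 (mostly 5-day) cells.

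Lgr5 reached 1.63 per 10000 in stem-like cells (302 transcripts), 1.26 in tuft-like (130), 0.697 in proliferating-like (129), 0.421 in both enteroendocrine-like (35) and Paneth-like (72), 0.149 in goblet-like (16) and 0.0954 in enterocyte-like cells (5). These sums pool all libraries, and tuft-like cells, the chemosensory cells of the epithelium, come from the later ones. Within the 8-week traced CD24+ libraries Lgr5 averaged 2.55 ± 0.396 in stem-like, 1.35 ± 0.435 in tuft-like and 1.32 ± 0.177 in proliferating-like cells (SD, n = 3 each), so that tuft-like and proliferating-like cells lay within each other's spread. At least 1 Lgr5 transcript was seen in 52% of stem-like cells (exact 95% interval 44.8 to 59.2) and in 45.3% of tuft-like cells (36.9 to 54), at median depths of 7457.5 transcripts in stem-like and 6903 in tuft-like cells. In enterocyte-like cells, which should lack the gene, 9.43% had one (3.13 to 20.7; median depth 8169). After thinning each cell to 3000 transcripts these shares were 31.3% in stem-like, 27.3% in tuft-like and 3.02% in enterocyte-like cells. Intervals cover counting error only.

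Ascl2, pooled over all libraries, had 1.29 per 10000 in stem-like, 0.936 in tuft-like and 0.719 in proliferating-like cells, and at most 0.357 in the others. Within the 8-week traced CD24+ libraries it averaged 1.25 ± 0.405 in stem-like, 0.959 ± 0.302 in tuft-like and 1.23 ± 0.313 in proliferating-like cells (SD, n = 3 each), with no order beyond the spread. The pooled level of proliferating-like cells includes the 5-day ones, at 0.103 ± 0.0579 (SD, n = 5). Of the other 6 members, all but Smoc2 were low in tuft-like cells relative to stem-like cells, in sums over all libraries. Axin2 had 2.62 per 10000 in stem-like, 1.77 in proliferating-like and 0.232 in tuft-like cells. Slc12a2 had 10.4 in stem-like, 5.65 in proliferating-like and 1.23 in tuft-like cells. Both are thus several times higher in stem-like than in tuft-like cells. Gkn3 had 1.38 in stem-like and 0.324 in proliferating-like cells, and 1 transcript in all tuft-like cells (0.00965). Rgmb had 0.867 per 10000 in stem-like, 0.611 in proliferating-like and 0.0772 in tuft-like cells, and Olfm4 0.598 in stem-like, 0.297 in proliferating-like and 0.0676 in tuft-like cells. Smoc2 lay between these patterns, with 3.64 per 10000 in stem-like, 2.30 in proliferating-like, 2.09 in enteroendocrine-like and 1.93 in tuft-like cells.

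After thinning, at least 1 Slc12a2 transcript was seen in 91.6% of stem-like, 67.8% of proliferating-like and 29.1% of tuft-like cells, and in 12.9% of enterocyte-like cells. For Smoc2 these shares were 60.9% in stem-like, 42.4% in proliferating-like, 31.3% in tuft-like and 9.11% in enterocyte-like cells. Gkn3 was seen in 28.6% of stem-like and 7.02% of proliferating-like cells, 0.406% of tuft-like and 2.63% of enterocyte-like cells. At full depth Slc12a2 was seen in 195 of 198 stem-like cells (98.5%) and Gkn3 in 98 (49.5%). Olfm4 was found in 15.7% of stem-like and 2.35% of enterocyte-like cells.

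The enteroendocrine-like cells, which make gut hormones, formed 3 clusters with different levels of these genes. In 33 cells led by Chgb, Chga, Tac1 and Tph1, markers of enterochromaffin cells, Lgr5 stood at 0.823 per 10000, Smoc2 at 2.57 and Axin2 at 1.22. In 39 cells led by Gip and Cck, Lgr5 stood at 0.308, Smoc2 at 2.52 and Axin2 at 0.861. In 34 cells led by Ghrl and Neurog3, a transcription factor of early endocrine cells, no Lgr5 or Ascl2 transcript was counted, Smoc2 stood at 0.693 and Axin2 at 0.793. Smoc2 was thus low in 1 of the 3 clusters and, in the others, near its level in proliferating-like cells. The clusters were not tested against each other.

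**Figure D2:**
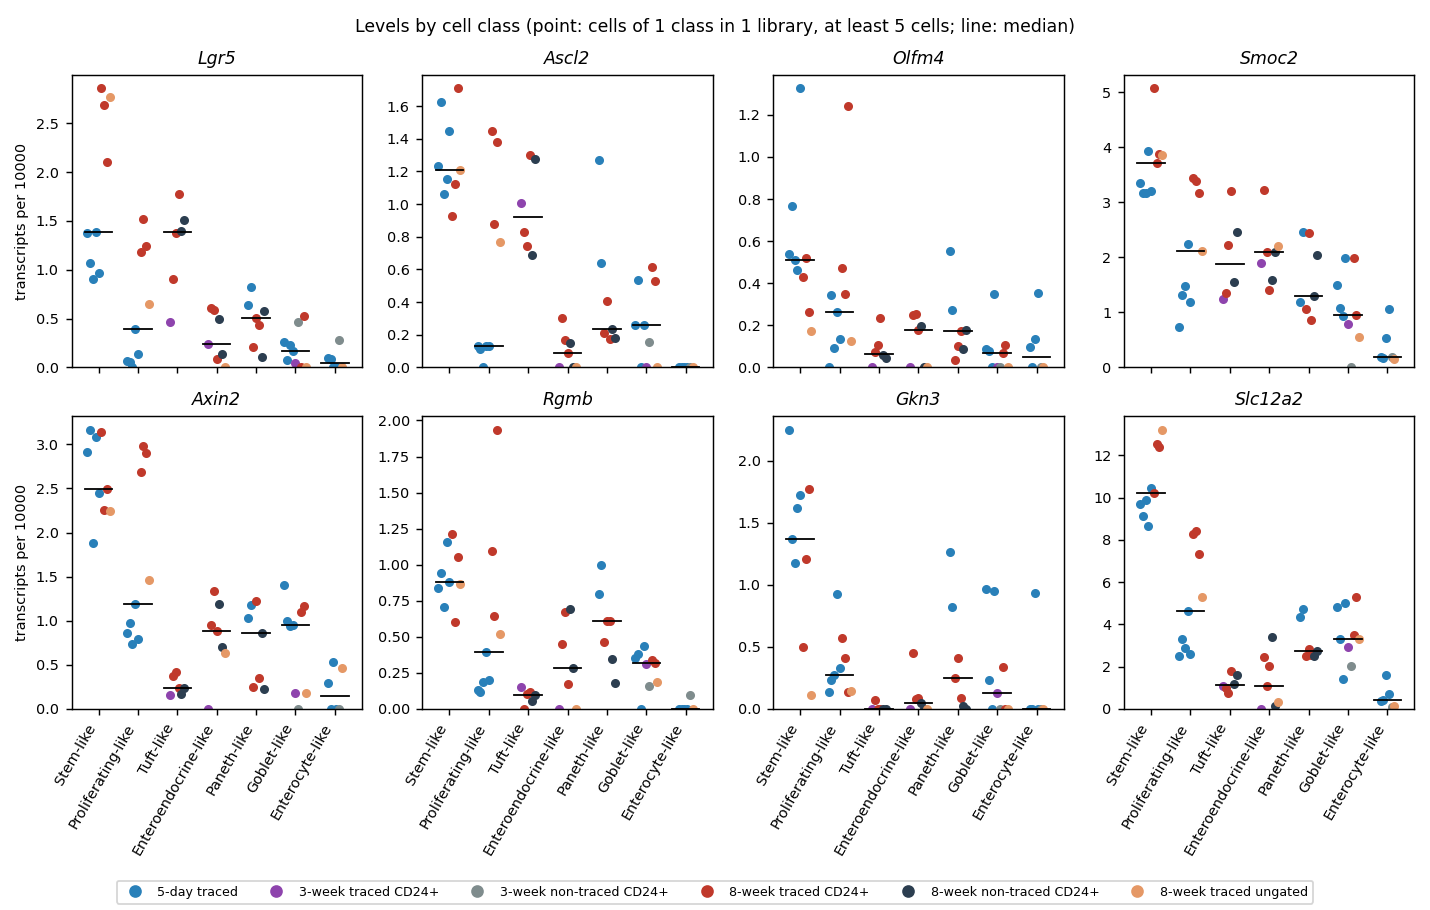
Level of each of the 8 genes (y axis, transcripts per 10000, linear, from 0) in 7 cell classes (x axis). Points are the cells of 1 class in 1 library with at least 5 such cells, coloured by group, and lines are medians. Tuft-like points reach the stem-like range for Lgr5 and Ascl2 and stay near 0 for Axin2, Rgmb and Gkn3. For Smoc2 the highest tuft-like point (3.20) is just above the lowest stem-like one (3.16).

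Stem-like cells were set against each other class within libraries, on the binomial part of the counts not used for clustering. Of the 8 members 4 had enough counts for the test, Lgr5, Smoc2, Axin2 and Slc12a2, and these gave 22 calls in 24 contrasts, all higher in stem-like cells. Without the library labelled 3-week non-traced CD24+ there were also 22 calls. A gene could pass the filter on low counts through the sums of the class where it was high. The stem-like class was also named by other stem markers. These counts of calls therefore describe the classes and are no independent evidence for them. Against proliferating-like cells 4 of 4 were higher (background 6.60% higher, 10.8% in either direction): Lgr5 by 1.92 ± 0.38 on the log2 scale (edgeR adjusted p = 0.000631), Slc12a2 by 1.24 ± 0.21 (edgeR adjusted p = 0.000107), Smoc2 by 0.97 ± 0.21 (edgeR adjusted p = 0.00154) and Axin2 by 0.71 ± 0.23 (edgeR adjusted p = 0.0363). Lgr5, Smoc2 and Slc12a2 were higher in stem-like cells in 9 of 9 libraries that held both classes, Axin2 in 7. In the libraries later than 5 days alone, Smoc2 (0.58 ± 0.25, edgeR adjusted p = 0.377) and Axin2 (0.02 ± 0.28, edgeR adjusted p = 1) did not pass. Against tuft-like cells 3 of 4 were higher (background 24.2% higher, 45.5% in either direction): Axin2 by 3.61 ± 0.48 (edgeR adjusted p = 7.9e-09), Slc12a2 by 3.12 ± 0.36 (edgeR adjusted p = 7.1e-11) and Smoc2 by 0.98 ± 0.30 (edgeR adjusted p = 0.00578). Lgr5 differed from tuft-like cells by 0.66 ± 0.49 (edgeR adjusted p = 0.278), which missed the threshold, with the stem-like value higher in 3 of 3 libraries that held both.

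Lgr5 was also higher in stem-like cells than in each of the other 4 classes. Against enterocyte-like cells 4 of 4 were higher (background 23.6% higher, 43.5% in either direction), Lgr5 by 4.27 ± 0.91 (edgeR adjusted p = 9.5e-05), Slc12a2 by 3.82, Smoc2 by 3.61 and Axin2 by 2.75. Against goblet-like cells 4 of 4 were higher (background 13.2% higher), Lgr5 by 3.50 ± 0.59 (edgeR adjusted p = 3.2e-06), Axin2 by 1.89, Smoc2 by 1.52 and Slc12a2 by 1.5. Against enteroendocrine-like cells 4 of 4 were higher (background 19.6% higher, 36.3% in either direction), Lgr5 by 2.63 ± 0.56 (edgeR adjusted p = 0.000115), Slc12a2 by 2.54, Axin2 by 1.66 and Smoc2 by 0.90. Against Paneth-like cells 3 of 4 were higher (background 29.2% in either direction), Lgr5 by 1.79 ± 0.52 (edgeR adjusted p = 0.00626), Axin2 by 1.22 and Slc12a2 by 0.96, while Smoc2 differed by 0.49 ± 0.28 (edgeR adjusted p = 0.179). On all counts, where 7 members could be tested, Ascl2 differed from tuft-like cells by 0.38 (edgeR adjusted p = 0.543), Gkn3 was higher in stem-like cells by 4.55 (edgeR adjusted p = 9.3e-05) and Rgmb by 3.32 (edgeR adjusted p = 2.7e-06).

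Of 11 other crypt base genes tested, 7 were higher in stem-like than in proliferating-like cells and 0 lower, with a median log2 difference of 0.83 against 0.04 over all genes. The largest were Igfbp4, which encodes a binding protein of insulin-like growth factors (1.64 ± 0.33, edgeR adjusted p = 7.5e-04), Prom1 (0.99 ± 0.21, edgeR adjusted p = 0.00154) and Cdca7 (0.92 ± 0.23, edgeR adjusted p = 0.00666). Against tuft-like cells 8 of the 11 were higher and 2 lower, with a median of 1.70 against 0.05. The 2 lower ones were Sox9 (-1.26 ± 0.23, edgeR adjusted p = 6.0e-06) and Hopx (-0.73 ± 0.19, edgeR adjusted p = 0.00126), and the largest of the higher ones were 2210407C18Rik (5.13 ± 0.62, edgeR adjusted p = 3.7e-10), Clca4 (4.46 ± 0.44, edgeR adjusted p = 5.6e-13) and Cdca7 (3.81 ± 0.51, edgeR adjusted p = 7.8e-09). Of 6 Wnt genes tested, 2 were higher in stem-like than in proliferating-like cells and 0 lower, Cdca7 and Sox9 (0.62 ± 0.21, edgeR adjusted p = 0.0418). These lists overlap the markers that named the classes, so they describe the classes and are no independent evidence for them.

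Within tuft-like cells Lgr5 was present in traced and non-traced libraries alike. It stood at 0.907, 1.38 and 1.78 per 10000 in the traced 8-week libraries (15, 14 and 14 cells), and at 1.40 and 1.51 in the non-traced 8-week libraries (40 and 31 cells). The groups overlap. Ascl2 in the same cells had 0.832, 0.741 and 1.30 in traced libraries and 0.687 and 1.27 in non-traced ones, also overlapping. The tuft-like cells formed a cluster of 107 cells, with 26.3 per 10000 of the tuft marker Dclk1, 1.45 of Lgr5 and 1.13 of Smoc2, and one of 32 cells, with 11.6 of Dclk1, 0.441 of Lgr5 and 5.19 of Smoc2. Ascl2 stood at 0.854 in the 107-cell and at 1.27 in the 32-cell cluster. Dclk1 was 0.0620 in the stem-like cluster of 53 cells and 0.0412 in that of 145 cells.

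The share of each gene's transcripts held by each class shows where a library sum came from. Stem-like cells held 35.5% of Lgr5 transcripts in 8-week traced CD24+ cells and 7.01% in 8-week non-traced CD24+ cells, and tuft-like cells held 13.8% in traced and 51.6% in non-traced cells. For Ascl2 the tuft-like share was 13.5% in traced and 49% in non-traced cells. For Axin2 it was 2.53% in traced and 8.15% in non-traced cells, and for Gkn3 0.901% (1 transcript) in traced and 0 of 9 transcripts in non-traced cells. The non-traced sums of Lgr5 and Ascl2 thus came largely from tuft-like cells, and those of Axin2 and Gkn3 did not. Tuft-like cells made up 47.6% and 49.2% of the cells of the non-traced libraries. The tuft-like shares of Lgr5 and Ascl2 transcripts were thus near the tuft-like share of cells. By library, the tuft-like share of Lgr5 was 9.16%, 15.1% and 20.5% in traced and 63.6% and 40% in non-traced libraries. There were 30 stem-like cells in the traced 8-week CD24+ libraries and 4 in the non-traced ones, too few to compare levels within the class. At 5 days stem-like cells held 63.3% of Lgr5 and 67.4% of Ascl2 transcripts, and no tuft-like cell was found.

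**Figure D3:**
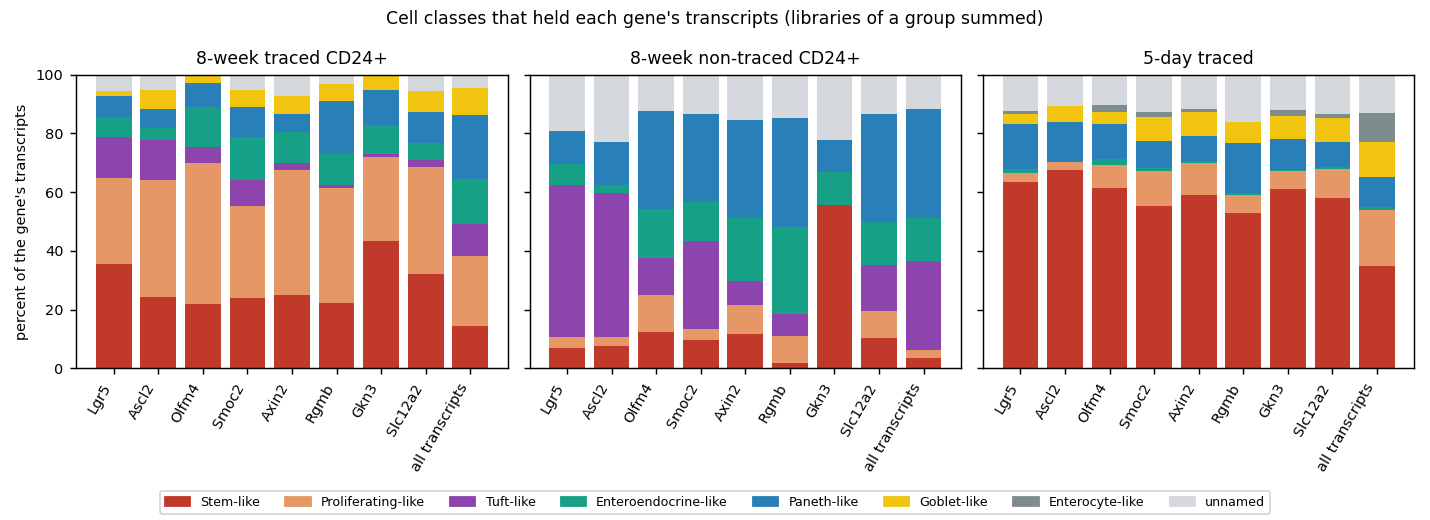
Percent of each gene's transcripts (y axis, stacked to 100) held by each cell class, for the 8 genes and for all transcripts (x axis), in 8-week traced CD24+, 8-week non-traced CD24+ and 5-day traced cells. Tuft-like cells hold 51.6% of Lgr5 in non-traced cells, against 8.15% of Axin2.

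Traced CD24+ cells at 8 weeks were next set against traced cells at 5 days, over all cells. The cell makeup differed between these groups. The 15 enterocyte markers summed to 6.55 to 8.16 per 10000 in 8-week and to 34.5 to 68.3 in 5-day libraries, the 11 tuft markers to 18.6 to 23.2 in 8-week and to 0.0565 to 3.05 in 5-day libraries, and Cd24a stood at 15.2 to 20.4 in 8-week and at 3.74 to 6.09 in 5-day libraries. The part of these in the differences over all cells was not tested. Lgr5 was higher at 8 weeks, with 0.952, 1.33 and 0.920 per 10000 in 8-week libraries, against 0.768, 0.460, 0.570, 0.721 and 0.592 in 5-day ones. The groups did not overlap, and the log2 difference was 0.69 ± 0.17 (edgeR adjusted p = 0.00488). The 8-week library without the gate, at 0.861, was also above every 5-day library. Gkn3 was lower at 8 weeks, with 0.385, 0.419 and 0.391 in 8-week libraries, against 1.23, 0.703, 0.831, 1.00 and 1.02 in 5-day ones, a log2 difference of -1.33 ± 0.18 (edgeR adjusted p = 6.3e-05). Its groups did not overlap either. Olfm4 had 0.247, 0.264 and 0.277 in 8-week libraries, against 0.297, 0.409, 0.326, 0.382 and 0.691 in 5-day ones (-0.73 ± 0.27, edgeR adjusted p = 0.0422), a call that held in 2 of 8 fits that left out a library. Without 5-day replicate 1 or replicate 3 Olfm4 stayed past the threshold, and without any of the others it did not. It also missed the threshold in DESeq2 (-0.73, DESeq2 adjusted p = 0.0736) and with cells from 5000 transcripts (-0.60, edgeR adjusted p = 0.0984).

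Ascl2 (0.11 ± 0.16, edgeR adjusted p = 0.632), Axin2 (-0.09 ± 0.14, edgeR adjusted p = 0.661), Rgmb (0.09 ± 0.18, edgeR adjusted p = 0.729), Slc12a2 (-0.19 ± 0.13, edgeR adjusted p = 0.266) and Smoc2 (0.22 ± 0.15, edgeR adjusted p = 0.267) did not pass. In all, 3 of 8 members were called, 1 higher and 2 lower at 8 weeks, which is close to the background of 37.1% of all genes (18.7% higher, 18.4% lower). The share of Lgr5-positive cells after thinning was 22.4% ± 4.05 at 8 weeks (SD, n = 3) and 16.2% ± 2.42 at 5 days (SD, n = 5). Its exact two-sided permutation p was 0.0357, the smallest that 3 against 5 libraries allow, and it was 0.143 without tuft-like cells and 0.107 without thinning. Of 20 genes of the Wnt list tested, 8 were higher at 8 weeks, with a median log2 difference of 0.12 against 0.00 over all genes. The largest were Nkd1, a feedback inhibitor (2.86 ± 0.32, edgeR adjusted p = 1.2e-05), Tcf7l2, a transcription factor of the pathway (1.51 ± 0.15, edgeR adjusted p = 4.2e-06), and the adhesion receptor gene Cd44 (1.20 ± 0.13, edgeR adjusted p = 7.2e-06). The 3 lower ones were the receptor gene Ephb3 (-1.04 ± 0.24, edgeR adjusted p = 0.00312), the Wnt co-receptor gene Lrp6 (-0.58 ± 0.20, edgeR adjusted p = 0.0355) and Ctnnb1, which encodes beta-catenin (-0.39 ± 0.13, edgeR adjusted p = 0.0292). Of 25 other crypt base genes tested 7 were higher, with a median of 0.03 over the 25. The largest were Pdgfa, a growth factor gene (1.47 ± 0.24, edgeR adjusted p = 0.00026), Cd44 and the transcription factor gene Sox9 (1.19 ± 0.14, edgeR adjusted p = 2.1e-05), and 2 were lower, Fstl1 (-2.60 ± 0.42, edgeR adjusted p = 0.000237) and Fgfbp1 (-0.83 ± 0.16, edgeR adjusted p = 0.000864).

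Within stem-like cells alone, Lgr5 remained higher at 8 weeks. It had 2.86, 2.68 and 2.10 per 10000 in stem-like cells of the 8-week libraries (9, 12 and 9 cells), against 1.38, 1.07, 0.902, 1.39 and 0.964 in those of the 5-day libraries (36, 29, 29, 16 and 33 cells). The groups did not overlap, with a log2 difference of 1.09 ± 0.22 (edgeR adjusted p = 0.00143), and the single ungated 8-week library had 2.77. In all 8 fits that left out a library the difference was called, at 0.97 to 1.22. The call was lost when cells from 1500 transcripts were kept (0.54, edgeR adjusted p = 0.0564) and at clustering resolution 2 (0.65, edgeR adjusted p = 0.161). From 5000 transcripts and at resolution 0.5 the comparison could not be made. Lgr5 was the only one of 8 members called at the chosen settings. The background was 15.05% of genes called in either direction, with 7.07% higher and 7.98% lower at 8 weeks. The count of members called was thus not above the background in either direction. The 8-week stem-like cells came mainly from the cluster of 53 cells and the 5-day ones from that of 145 cells.

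None of the other 7 members passed the test in stem-like cells. Axin2 had 3.14, 2.25 and 2.50 per 10000 at 8 weeks, against 2.91, 3.16, 1.88, 3.08 and 2.45 at 5 days, an overlap (-0.09 ± 0.21, edgeR adjusted p = 0.816). Ascl2 (-0.11 ± 0.25, edgeR adjusted p = 0.810), Rgmb (0.08 ± 0.27, edgeR adjusted p = 0.889), Slc12a2 (0.22 ± 0.13, edgeR adjusted p = 0.275) and Smoc2 (0.27 ± 0.17, edgeR adjusted p = 0.302) missed the threshold as well. Gkn3 had 0.50, 1.21 and 1.77 at 8 weeks, against 2.25, 1.37, 1.18, 1.62 and 1.73 at 5 days, and 0.115 in the ungated library. Its log2 difference of -0.56 ± 0.31 (edgeR adjusted p = 0.244) passed at 1500 transcripts (-1.16, edgeR adjusted p = 0.00441) and at resolution 2 (-1.14, edgeR adjusted p = 0.0319). Olfm4 differed by -0.96 ± 0.43 (edgeR adjusted p = 0.148). Of 14 genes of the Wnt list tested in these cells 5 were higher at 8 weeks, with a median log2 difference of 0.46 against 0.00 over all genes. These were Tnfrsf19 at 1.99 ± 0.42 (edgeR adjusted p = 0.00203), the cyclin genes Ccnd2 at 1.38 ± 0.21 (edgeR adjusted p = 0.000125) and Ccnd1 at 0.92 ± 0.21 (edgeR adjusted p = 0.0037), Cd44 at 1.10 ± 0.23 (edgeR adjusted p = 0.00203) and Sox9 at 0.76 ± 0.23 (edgeR adjusted p = 0.0256). In the other direction 1 was lower, Ephb3 at -1.77 ± 0.46 (edgeR adjusted p = 0.0116). Of 19 other crypt base genes tested 9 were higher and 0 lower, with a median of 0.40. The largest were Pdgfa at 2.43 ± 0.34 (edgeR adjusted p = 4.0e-05), 2210407C18Rik at 2.28 ± 0.19 (edgeR adjusted p = 1.1e-07) and Tnfrsf19. Over all genes tested, 7.07% were higher at 8 weeks. Pdgfa, 2210407C18Rik and Tnfrsf19 were among the markers that named the clusters, raised in the 53-cell cluster and not in the 145-cell one. This fit used all counts, including the part that made the clusters. The counts of both lists therefore describe the cells compared and are no independent evidence.

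In proliferating-like cells Lgr5, Axin2 and Slc12a2 had higher levels in every 8-week library than in any 5-day library. The gap between stem-like and proliferating-like cells was therefore tested as an interaction with time, a comparison added after seeing the data. Lgr5 in proliferating-like cells had 1.19, 1.52 and 1.24 per 10000 in 8-week libraries, against 0.0665, 0.0576, 0, 0.398 and 0.133 in 5-day ones. Axin2 had 2.68, 2.98 and 2.90 at 8 weeks, against 0.865, 0.980, 0.739, 1.19 and 0.798 at 5 days. Slc12a2 had 8.28, 8.40 and 7.32 at 8 weeks, against 2.53, 3.29, 2.86, 4.64 and 2.59 at 5 days. These values rest on 35 cells at 8 weeks and 52 at 5 days, mostly from different clusters. The cluster of 75 cells, mostly later ones, had 8 raised stem markers besides the members, and that of 50 cells, mostly 5-day ones, had 1. Lgr5 stood at 1.02 per 10000 in the 75-cell and at 0.0936 in the 50-cell cluster. The part of this unlike makeup in the differences between times was not tested. Smoc2 did not overlap either, at 3.18 to 3.44 per 10000 in 8-week and 0.732 to 2.25 in 5-day libraries, nor did Ascl2, at 0.875 to 1.45 in 8-week and 0 to 0.133 in 5-day libraries. Rgmb, at 0.642 to 1.93 in 8-week and 0.115 to 0.398 in 5-day libraries, and Olfm4, at 0.35 to 1.24 in 8-week and 0 to 0.346 in 5-day libraries, were likewise apart, on 2 to 46 transcripts of Rgmb and 0 to 20 of Olfm4 a library. Gkn3 overlapped, with 0.570, 0.408 and 0.138 at 8 weeks, against 0.133, 0.231, 0.277, 0.928 and 0.332 at 5 days. The share of all genes that lie apart in this way was not counted, and proliferating-like cells were not tested between times. Levels that do not overlap are therefore not read as particular to the members. The ungated 8-week library lay between the groups for Lgr5 (0.646), Ascl2 (0.771), Axin2 (1.46) and Slc12a2 (5.29).

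For Axin2 the stem-like minus proliferating-like difference did not pass at 8 weeks (-0.03 ± 0.27, edgeR adjusted p = 0.984) and was positive at 5 days (1.42 ± 0.24, edgeR adjusted p = 2.1e-05). The change of this gap, 8 weeks minus 5 days, was -1.46 ± 0.37 (edgeR adjusted p = 0.0182). For Slc12a2 the gap was 0.68 ± 0.17 at 8 weeks and 1.79 ± 0.16 at 5 days, with a change of -1.12 ± 0.24 (edgeR adjusted p = 0.00312). Of the 5 members that passed the filter these 2 were called, against a background of 2.34% of genes in either direction and 1.78% lower. A gene could pass the filter through the class and time where it was high. The comparison was also chosen after the levels of Axin2 and Slc12a2 in these cells were seen. This count therefore describes the members and is no independent evidence. The Axin2 call was lost without 5-day replicate 1 (adjusted p = 0.0599, edgeR), 5-day replicate 2 (adjusted p = 0.064, edgeR) or 8-week traced replicate 2 (-1.26, edgeR adjusted p = 0.148), and the Slc12a2 call without 8-week traced replicate 1 (-0.89, edgeR adjusted p = 0.0997). The change for Lgr5 was -2.23 ± 0.74 (edgeR adjusted p = 0.116), for Smoc2 -1.0 ± 0.34 (edgeR adjusted p = 0.132) and for Gkn3 -2.21 ± 0.87 (edgeR adjusted p = 0.229). Gkn3 ran from -3.27 without 8-week traced replicate 3, where it was called (edgeR adjusted p = 0.0175), to -1.25 without 8-week traced replicate 1 (edgeR adjusted p = 0.748). Ascl2, Olfm4 and Rgmb had too few counts for this test, and Ascl2 entered it, and was called, only without 8-week traced replicate 2 (-3.70, edgeR adjusted p = 0.00286) or replicate 3 (-3.39, edgeR adjusted p = 0.00178). Lgr5 itself was higher in stem-like cells at 8 weeks (1.22 ± 0.36, edgeR adjusted p = 0.0332; background 6.78%) and at 5 days (3.46 ± 0.56, edgeR adjusted p = 1.2e-05; background 17.7%).

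**Figure D4:**
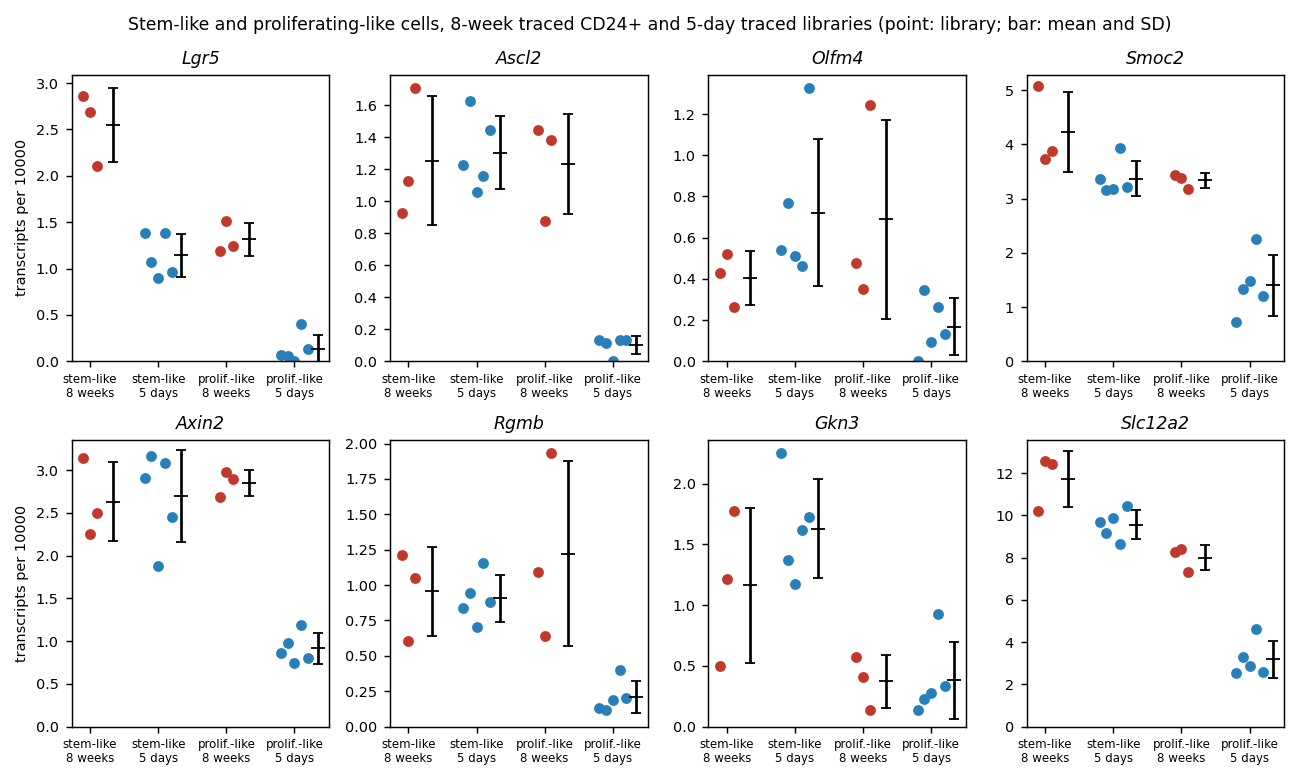
Level of each of the 8 genes (y axis, transcripts per 10000, linear, from 0) in stem-like and proliferating-like cells of 8-week traced CD24+ and 5-day traced libraries (x axis). Points are libraries and bars the mean and SD, cut off at 0; Axin2 in proliferating-like cells averages 2.85 ± 0.153 at 8 weeks and 0.915 ± 0.179 at 5 days.

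Co-detection was counted within libraries, as cells with both genes over the number expected from the 2 shares, after thinning. Over all cells Lgr5 was seen together with Ascl2 at 1.79 times the number expected, and above it in 11 of 11 libraries (1.34 to 2.24). The ratio was 1.64 for Rgmb, 1.62 for Axin2 and for Gkn3, 1.44 for Olfm4, 1.38 for Smoc2 and 1.31 for Slc12a2. Ascl2 was detected in 27.7% of Lgr5-positive and 12.5% of Lgr5-negative cells, Axin2 in 42.9% of Lgr5-positive and 22.5% of Lgr5-negative cells, and Gkn3 in 16.6% of Lgr5-positive and 9.24% of Lgr5-negative cells. Lgr5-positive cells were also deeper, with a median of 10212 transcripts in 315 cells, against 7693 in 577 Lgr5-negative cells, and the part of depth in the ratios that remain after thinning was not tested. Within stem-like cells the ratios were lower, 1.22 for Ascl2 and Rgmb, 1.19 for Gkn3, 1.16 for Smoc2, 1.15 for Axin2, 1.04 for Slc12a2 and 0.829 for Olfm4. Within tuft-like cells Ascl2 stood at 1.32, above 1 in 4 of 4 libraries, and Smoc2 at 1.02.

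**Figure D5:**
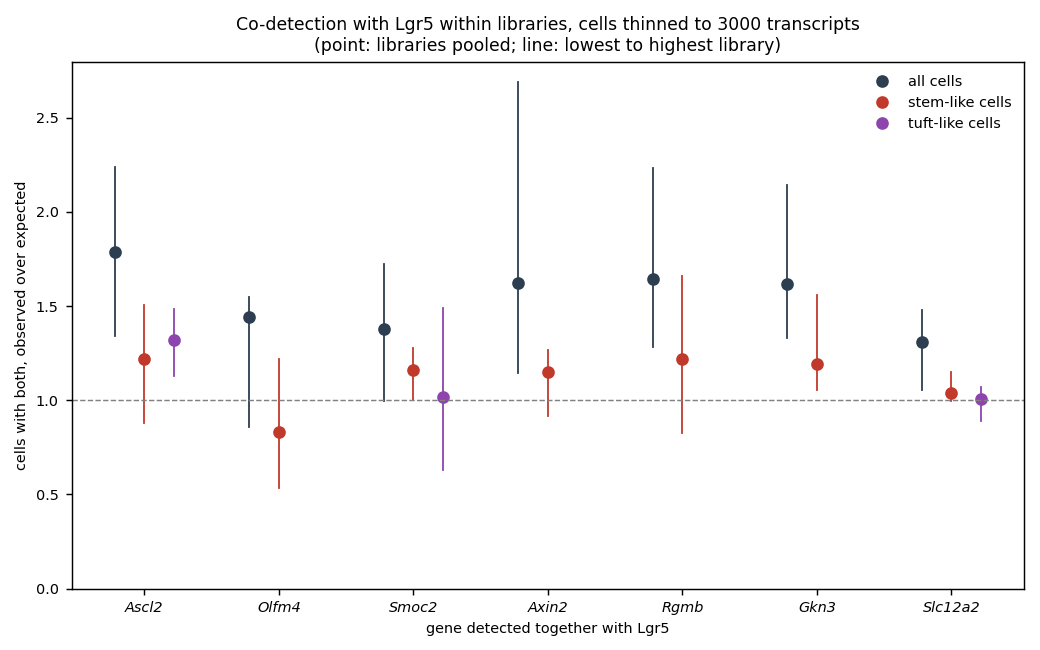
Cells with both Lgr5 and a second gene, observed over expected (y axis, linear, from 0; dashed line at 1), for the 7 other genes (x axis), in all, stem-like and tuft-like cells thinned to 3000 transcripts. Points pool the libraries and lines run from the lowest to the highest library; Ascl2 has the highest ratio over all cells, 1.79.

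Stem-like cells carried 3.31 of the 8 genes on average after thinning, proliferating-like cells 2.09, Paneth-like 1.42, tuft-like 1.24, goblet-like 1.22, enteroendocrine-like 0.974 and enterocyte-like 0.363. At full depth 157 of 198 stem-like cells (79.3%) held at least 4 members. So did 54.7% of Paneth-like, 54.4% of proliferating-like, 22.6% of goblet-like, 15.1% of tuft-like, 14.2% of enteroendocrine-like and 1.89% of enterocyte-like cells. These shares are not corrected for depth. The Paneth-like clusters had medians of 17741 and 17354 transcripts, against 7457.5 in stem-like cells.

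Across the 53 library-class sums of at least 5 cells, centred within libraries, Ascl2 was the gene whose level was most like that of Lgr5 among 3718 genes (Pearson r = 0.85). These were the genes with a mean of at least 0.5 per 10000 over the sums, and the members whatever their mean. Olfm4 (0.228), Gkn3 (0.416) and Rgmb (0.431) had means below that limit, so other genes of their level were not ranked. Smoc2 ranked 7 (0.75), Slc12a2 26 (0.64), Olfm4 59 (0.59), Axin2 82 (0.58), Rgmb 113 (0.56) and Gkn3 143 (0.54). The 10 other genes most like Lgr5 were 2410006H16Rik, Utrn, Kcnq1, Clic6, Nap1l1, Sdc4, Amica1, Igfbp4, 1500012F01Rik and Cyba, at 0.80 to 0.72. The sums share libraries and differ in depth, so these values describe likeness only.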

How the data were processed

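Single small-intestinal cells were sequenced by CEL-seq, which tags each molecule at its 3′ end, on HiSeq2500 and NextSeq500 instruments, per the labels' protocols. Reads were mapped to mm10, with BWA 0.6.2-r126 among the tools, per the submitters' processing notes; the counter is not given in the sources used here. The values the authors deposited are expected counts: each value below the ceiling was, within 1e-06 of a barcode, a whole number of 256 molecular barcodes after a logarithmic correction for barcodes used more than once, and 145 of 3172205 values above 0 were at its ceiling. A gene absent from a library's table was taken as 0, and 1 of 13 tables lacks a member, Olfm4, in the 3-week traced library. Spike-ins were left out. The authors' combined table has 576 columns that are not tied to a sample by name. They gave only the names of sets, each found by equal values in 1 library's own table. Cells with at least 3000 transcripts were kept (356 of 1248 barcodes removed), and no doublet detection was run. A cluster of 18 cells with many tuft and proliferation markers, at a median of 18456 transcripts, stayed unnamed.

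Counts were rounded and summed per library, or per library and class with at least 5 cells, and tested with edgeR 4.0.16 (R 4.3.3; quasi-likelihood, TMM, filterByExpr, Benjamini-Hochberg over all genes tested, threshold 0.05). DESeq2 1.42.0 was an alternative. Libraries were the replicates. Clusters (scanpy 1.11.5, leidenalg 0.10.2, Python 3.11.15; 2000 variable genes, 30 components, 10 neighbours, resolution 1) used one binomial part of the counts without the 8 genes, and contrasts between classes used the other part with the library as a block. A cluster took a class name where at least 3 of that class's markers rose by 0.25 and at least 1 was among its top 10 genes, a rule set after the clusters were seen. It stayed unnamed where over 85% of its cells came from 1 library, or where another list had 2 times as many raised markers. Shares after thinning to 3000 transcripts are exact means over all draws, chosen after single draws were seen to vary. Shares were compared by exact permutation over libraries (scipy 1.17.1). The members and lists were chosen with earlier results of these data known. All 8 members are named in every comparison where they could be tested, together with the 10 other genes most correlated with Lgr5 and the strongest calls of 2 lists, 28 of 29 Wnt genes and 31 of 33 other crypt base genes being in the files. Alternatives were other depth minimums (1500 and 5000), resolutions (0.5 and 2), no filter on low counts and all counts. Others were leaving out each library, a block for the set name or for the replicate number, and leaving out tuft-like cells. The labels name no batch. Scripts were tested on simulated data.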

Additional observations from a re-analysis of the deposited data

Results flagged for a closer look

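In the 5-day libraries, replicate 5 stood apart for Olfm4, with a level of 0.691 per 10000 and 19.6% of cells positive after thinning, each the highest of 5. The share of Axin2-positive cells was lowest in replicate 3, at 30.9%. The stem-like level of Smoc2 was highest in replicate 4, at 3.93 per 10000. Such gaps were looked for in 24 groups of 5 libraries, of which chance flags about 1 in 20. The gap between stem-like and proliferating-like cells differed between the times, as 8 weeks minus 5 days, by -1.46 (log2) for Axin2 and by -1.12 for Slc12a2.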

How the results depend on the processing

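Of 555 log2 changes of members under alternatives, 494 kept their direction and side of the threshold, 44 lost the call, 6 gained it and 11 turned sign. Leaving out 1 library at a time, Lgr5 ran from -0.15 to 0.67 traced minus non-traced, being below 0 without 8-week non-traced replicate 1. At 8 weeks minus 5 days over all cells, Axin2 ran from -0.17 to 0.020, above 0 without 8-week traced replicate 3. In stem-like cells Ascl2 was 0.052 without 8-week traced replicate 1. Rgmb ran from -0.14 to 0.27 when a library was left out, with -0.011 without 8-week traced replicate 3, and was -0.031 with no filter and -0.44 at resolution 2. At resolution 2 Smoc2 was -0.11 and Slc12a2 -0.14, and with cells from 1500 transcripts Slc12a2 was -0.075. Smoc2, stem-like minus Paneth-like, was -0.42 in the 5-day libraries alone. The cause of these turns was not tested.

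Members called between traced and non-traced cells numbered 4, or 1 without tuft-like cells and 1 to 4 when each library was left out. Stem-like cells against the other classes gave 22 calls, 35 on all counts, 37 with no filter on low counts, 14 from 5000 transcripts, 14 at resolution 0.5 and 11 in the 5-day libraries alone, where different numbers of members could be tested. The share of Lgr5-positive cells, 8 weeks minus 5 days, differed by 6.18 percentage points, by 10.2 without thinning, by 4.20 without tuft-like cells and by 3.87 to 7.62 when a library was left out. The same share, traced minus non-traced, differed by 1.23 points and by -1.57 to 4.03 when a library was left out, including -1.08 without 8-week traced replicate 2. No value for stem-like cells between times could be had from 5000 transcripts or at resolution 0.5. At each of these settings only 4 libraries held at least 5 stem-like cells, against 9 at the chosen settings. They held 50 such cells from 5000 transcripts and 117 at resolution 0.5, against 192. At resolution 0.5 a cluster of 200 cells was named proliferating-like, with 16 proliferation and 5 stem markers raised. No library then held both classes. A stem-like class in the 5-day libraries thus depended on the settings.

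DESeq2 called 200 genes between traced and non-traced cells, against 376 in edgeR, and 87 were called in edgeR without tuft-like cells. In stem-like cells between times DESeq2 called 401 genes, against 598. A replicate block could be fitted only on libraries that share a number, 4 between traced and non-traced cells and 6 between times. It called 522 genes and 4 members between traced and non-traced cells, 2867 genes and 2 members between times over all cells and 652 genes and 1 member in stem-like cells. The same libraries without the block, a fit added after seeing the data, gave 355 genes and 3 members, 2815 genes and 2 members, and 574 genes and 1 member, in the same order of comparisons. Olfm4 lost its call between times both with the block (-0.45, edgeR adjusted p = 0.199) and without it on these libraries (-0.48, edgeR adjusted p = 0.144). Same-numbered libraries correlated at -0.019 to 0.0616 in their deviations between times, where no source ties equal numbers, and at 0.091 and 0.127 between traced and non-traced cells, where number 1 goes with one set name. A block for that set called 357 genes and the 4 members. At this depth Ascl2, Olfm4, Rgmb and Gkn3 had too few counts in the held-out part for the contrasts between classes.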
